A study of Homo sapiens with 6 samples.

Results

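The genes described here are the protein-coding metallothioneins, the zinc transporters of the SLC30A and SLC39A families, and MTF1, the zinc-sensing transcription factor. They were chosen by gene symbol alone, with no measured value in the rule, although the families were picked with earlier results of these data known. The rule found 36 of the 58735 genes in the deposited table: 11 metallothioneins, 10 SLC30A genes, 14 SLC39A genes and MTF1. RNA was sequenced from MDA-MB-231 cells, an established human line of triple-negative breast cancer, a tumor type without estrogen receptor, progesterone receptor or amplified HER2. Both groups were wild-type cells of this line kept in culture for 24 h. Vehicle was given to 3 samples, and the other 3 received SCH, the water extract of the herb Salvia chinensis Benth, at 100 mg/l. The labels call the 3 samples of a group biological repeats, and all came from 1 cell line. The total counts were 20291379, 18714240 and 18334857 in the vehicle samples and 16836369, 17979434 and 18414924 in the SCH samples.

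Metallothioneins are small cytosolic proteins that bind zinc, copper and cadmium through their many cysteines. Their transcription is switched on when MTF1 binds zinc and attaches to metal response elements, short motifs in their promoters, and glucocorticoids and oxidative stress are also known to raise several of them. SLC30A proteins, also called ZnT, move zinc out of the cytosol, either out of the cell or into organelles, and SLC39A proteins, also called ZIP, move it into the cytosol.

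The coding sequences of MT2A and MT1E, the metallothioneins with the most RNA in these cells, are shown because the comparison below turns on telling these near-identical genes apart. They were read from the transcripts of GENCODE release 29, 5′ to 3′, with the cysteine codons in capitals.
MT2A: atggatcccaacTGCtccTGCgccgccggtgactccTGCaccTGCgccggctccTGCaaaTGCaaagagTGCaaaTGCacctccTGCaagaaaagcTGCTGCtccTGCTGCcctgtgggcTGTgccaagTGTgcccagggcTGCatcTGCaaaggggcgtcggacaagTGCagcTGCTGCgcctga
MT1E: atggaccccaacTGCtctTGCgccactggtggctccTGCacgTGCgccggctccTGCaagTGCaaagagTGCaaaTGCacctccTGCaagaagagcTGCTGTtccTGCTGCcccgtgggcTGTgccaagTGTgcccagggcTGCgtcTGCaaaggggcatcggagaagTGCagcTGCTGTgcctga
Each had 186 bases with the stop codon and 61 codons without it, of which 20 coded for cysteine (32.8%), and the pair differed at 14 bases (92.5% identity). Among the 5 metallothioneins with enough RNA to be tested, the 10 pairs of coding sequences were 88.7% to 94.6% identical. No stretch of 100 bases in the transcripts of MT2A, MT1E, MT1A or MT1F occurred in another gene's transcripts, against 11.3% of such stretches for MT1X. Of stretches of 50 bases, 7.10% of those of MT1E occurred in another gene's transcripts, 5.76% of MT1A, 3.02% of MT2A, 1.22% of MT1F and 18.3% of MT1X.

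Promoters of metallothioneins are shown because they carry the elements through which MTF1 acts. The core of a metal response element was searched as TGCACNC or TGCGCNC on both strands. The window was the 250 bases before each gene's start in RefSeq (GRCh38.p14), where 27 of the 36 genes had an entry. Of the 11 metallothioneins, 5 had an entry: MT1B, MT1H, MT1X, MT2A and MT4. MT1E, MT1A and MT1F had none, so their promoters were not searched. Of all 35116 promoters searched, 24.8% held at least 1 core and 0.370% held at least 4. Cores are in capitals, and those on the opposite strand read as their reverse complement.
MT1X, chr16:56682220-56682423, plus strand: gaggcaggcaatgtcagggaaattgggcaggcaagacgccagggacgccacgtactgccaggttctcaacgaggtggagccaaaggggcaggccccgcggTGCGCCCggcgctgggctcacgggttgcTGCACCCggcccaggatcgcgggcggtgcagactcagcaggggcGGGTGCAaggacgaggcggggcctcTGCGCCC
MT1H, chr16:56669564-56669813, plus strand: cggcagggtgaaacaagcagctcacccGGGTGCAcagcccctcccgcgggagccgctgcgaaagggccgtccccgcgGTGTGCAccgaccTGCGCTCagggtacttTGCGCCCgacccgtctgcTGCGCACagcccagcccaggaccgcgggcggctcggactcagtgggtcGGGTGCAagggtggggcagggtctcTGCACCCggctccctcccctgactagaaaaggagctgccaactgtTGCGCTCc
MT2A, chr16:56608408-56608437, plus strand: cgcggcccGTGTGCAgagccgggTGCGCCC
The window of MT1X is cut where its first exon begins, and that of MT2A lies in the first exon of the wider GENCODE gene, so only the 30 bases with the densest cores are printed. MT2A held 7 cores in its full window (at least 7 in 0.0313% of all promoters), MT1X 4 and MT1H 8 (at least 8 in 0.0171%). MT1B and MT4 held 3 each. Of the 21 zinc transporters with an entry, 7 held a core and none more than 3. SLC30A1 held 1, at 49 bases before its start. MTF1, SLC39A10 and SLC39A11 held none of these letters in the window. A match is a description of the sequence, and cores were present both in MT2A, the most abundant of these genes, and in MT1H, with no counts in these libraries.

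After 24 h with SCH, all 5 metallothioneins that could be tested had less RNA than with vehicle, whereas the zinc transporters went both ways. Of the 36 genes, 23 passed the filter on low counts. By edgeR's quasi-likelihood test with an adjusted p under 0.05 (Benjamini-Hochberg over all 14736 tested genes), 17 of the 23 changed (73.9%), against 58.7% of all tested genes. Of these, 8 were raised and 9 lowered, against 29.3% and 29.4% of all tested genes in those directions. Scaled by library size only, without TMM factors, 9 members were raised and 8 lowered (5519 and 3295 of all genes), and with upper quartile factors 6 were raised and 12 lowered (3918 and 4675). The 5 metallothioneins were lowered under each of these scalings. The median log2 fold change of the 23 was -0.10, and that of all tested genes was -0.0034. A change of at least 1 on the log2 scale was seen in 2 of the 23, MT1E and SLC39A11, both lowered, against 8.77% of all tested genes. In 17 of the 23, the ranges of the groups did not overlap, 8 higher and 9 lower, against 62.4% of all tested genes. Most genes of these cells changed, so the share of changed members is to be read against that background. In bulk RNA, fewer cells of a kind and less RNA per cell cannot be told apart.

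**Figure D1:**
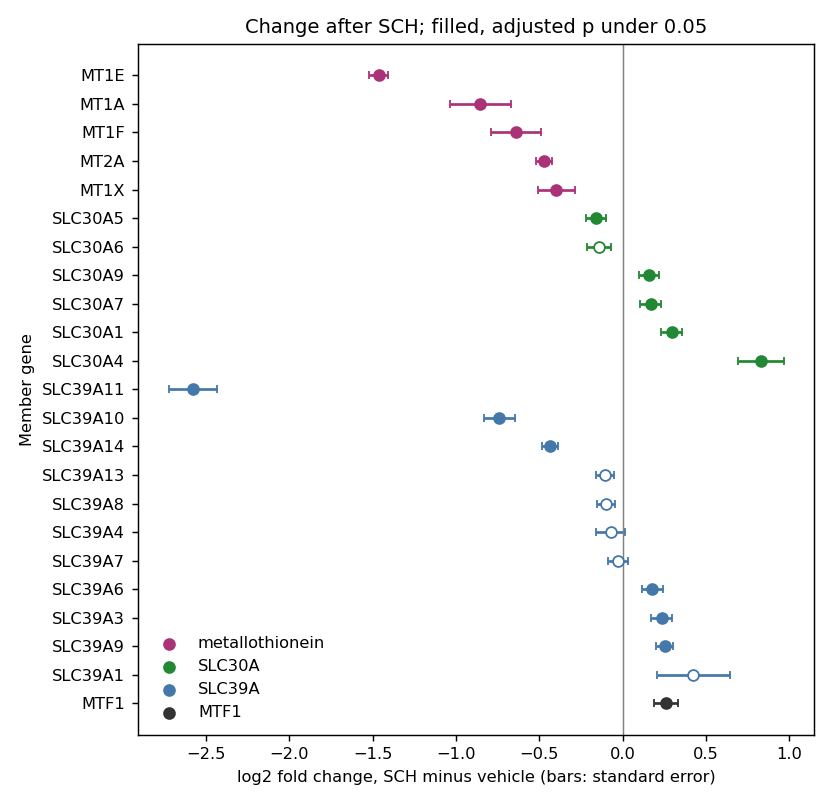
Change in each of the 23 tested genes (y axis) as the log2 fold change of SCH against vehicle (x axis), with bars of 1 standard error, coloured by family. Filled points had an adjusted p under 0.05, and all 5 metallothioneins lie left of 0, with SLC39A11 the lowest point at -2.58 and SLC30A4 the highest at 0.83.

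The remaining 13 genes were at or near 0 reads. No count was found in any sample for MT1B, MT1G, MT1H, MT1M, MT3, MT4, SLC30A3 and SLC30A8, where a floor of 3 counts would correspond to 0.148 to 0.178 CPM, the count divided by the library total in units of 1e6. MT3 and MT4 are known from brain and squamous epithelium, SLC30A3 from synaptic vesicles and SLC30A8 from insulin granules. SLC30A2 and SLC39A12 each had 1 count in 1 SCH sample. SLC39A2 had up to 3 counts in a sample, SLC39A5 between 4 and 7, and SLC30A10 had 4, 5 and 9 in the vehicle samples and 1, 3 and 3 in the SCH samples. These genes were not tested.

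MT1E, a metallothionein of the MT1 group (ENSG00000169715, chr16:56625475-56627112, GRCh38, plus strand), showed the largest fall of the family. Its level was 486, 421 and 462 normalized CPM in the vehicle samples, that is, CPM of the TMM-scaled library. In the SCH samples it was 157, 166 and 174. All SCH samples lay far below all vehicle samples. The mean went from 456 ± 32.5 (SD, n = 3) to 165 ± 8.32, a 2.76-fold lower level. The log2 fold change was -1.46 (SE 0.056, adjusted p = 5.62e-16), the 314th lowest of the 14736 tested genes and the 30th by the size of its p. By FPKM, which divides by gene length, MT1E went from the 66th to the 198th most abundant gene of the table.

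MT2A, the main metallothionein of most human cells (ENSG00000125148, chr16:56608199-56609497, plus strand), fell by less. Its normalized CPM was 2885, 2674 and 2785 with vehicle. With SCH the values were 1953, 1997 and 2064, all below the lowest vehicle sample. The mean went from 2781 ± 105 to 2005 ± 56.4, and the log2 fold change was -0.47 (SE 0.046, adjusted p = 5.92e-09). MT2A was still among the most abundant transcripts of the cells, 11th by FPKM with vehicle and 12th with SCH.

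MT1A (ENSG00000205362, chr16:56638666-56640087, plus strand) and MT1F (ENSG00000198417, chr16:56657694-56660698, plus strand), metal-binding proteins like the others, were far less abundant. MT1A stood at 4.97, 4.06 and 5.45 normalized CPM with vehicle against 2.98, 2.20 and 2.84 with SCH. Its log2 fold change was -0.85 (SE 0.18, adjusted p = 0.000360). MT1F stood at 6.25, 6.90 and 5.78 against 3.84, 4.34 and 3.94. Its log2 fold change was -0.64 (SE 0.15, adjusted p = 0.000763). The groups did not overlap in either gene.

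MT1X, the fifth tested metallothionein (ENSG00000187193, chr16:56682424-56684196, plus strand), was the least certain. It measured 36.9, 42.1 and 27.2 normalized CPM with vehicle and 30.3, 24.1 and 26.1 with SCH. The groups overlapped, since the lowest vehicle sample lay below the highest SCH sample. The log2 fold change was -0.40 (SE 0.11, adjusted p = 0.00357 by edgeR). It was about as large with DESeq2 (-0.39) and limma on log2(FPKM + 1) (-0.35), but the adjusted p was 0.101 and 0.0679. Without vehicle replicate 2, its highest sample, the log2 fold change was -0.26. Of its exonic bases, 18.1% lie in exons of another annotated gene, AC026461.1, so part of its reads cannot be assigned with certainty.

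**Figure D2:**
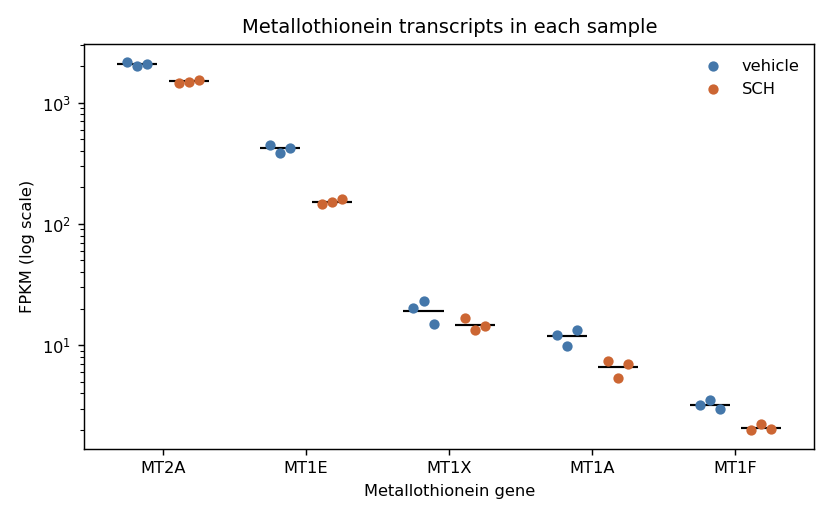
FPKM of the 5 tested metallothioneins (x axis) on a log scale (y axis), with 1 point per sample and vehicle and SCH side by side. The 3 SCH samples lie below the 3 vehicle samples in MT2A, MT1E, MT1A and MT1F and overlap them in MT1X.

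Together the metallothioneins took up 0.329%, 0.302% and 0.319% of all counts in the vehicle samples. In the SCH samples the shares were 0.223%, 0.228% and 0.235%. The mean share thus went from 0.317% ± 0.0135 to 0.228% ± 0.00614, with no overlap between the groups. Nearly all of it came from MT2A and MT1E, whose balance shifted with the unequal falls. MT2A made up 84.7% ± 0.279 of metallothionein counts with vehicle and 91.0% ± 0.0724 with SCH. MT1E made up 13.9% ± 0.442 with vehicle and 7.50% ± 0.172 with SCH. The ratio of MT2A to MT1E by FPKM was 4.81, 5.14 and 4.88 in the vehicle samples and 10.1, 9.76 and 9.63 in the SCH samples. The other metallothioneins made up 1.42% ± 0.258 with vehicle and 1.53% ± 0.179 with SCH, with overlapping groups. Reads of the 9 metallothionein pseudogenes in the table were few, at most 9 counts for any of them in a sample, and 4 had none.

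**Figure D3:**
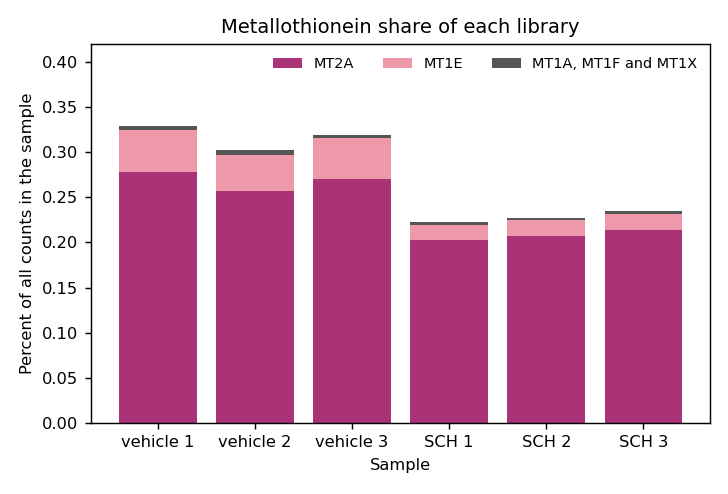
Percent of all counts of each sample (y axis) that fell on MT2A, MT1E and the other metallothioneins, as stacked bars for the 6 samples (x axis). The 3 vehicle bars reach 0.302% to 0.329% and the 3 SCH bars 0.223% to 0.235%, and the MT1E segment is the one that shrinks most in proportion.

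MTF1 (ENSG00000188786, chr1:37809567-37859620, minus strand), the factor that drives metallothionein and SLC30A1 transcription in response to zinc, was slightly higher with SCH. It measured 33.9, 32.5 and 38.9 normalized CPM with vehicle against 42.7, 43.0 and 40.2 with SCH. The groups did not overlap, and the log2 fold change was 0.26 (SE 0.073, adjusted p = 0.00397). Its activity, which depends on zinc binding and on its place in the cell, was not measured by these data.

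Among the zinc exporters of the SLC30A family, 6 of 10 were tested, of which 4 were raised, 1 was lowered and 1 was not called (median log2 fold change 0.16). The share changed was 83.3%, against 58.7% of all tested genes, of which 29.3% were raised and 29.4% lowered. Of the 4 raised calls, those of SLC30A7 and SLC30A9 were lost with upper quartile factors. SLC30A1 (ENSG00000170385, chr1:211571568-211578742, minus strand), the exporter of the plasma membrane and a known MTF1 target, was raised. Its normalized CPM was 52.6, 50.3 and 57.3 with vehicle and 66.5, 67.2 and 62.9 with SCH. All SCH samples lay above all vehicle samples, and the log2 fold change was 0.30 (SE 0.063, adjusted p = 0.000303). SLC30A1 was raised and the tested metallothioneins were lowered, and the part of MTF1 in these changes was not tested.

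SLC30A4 (ENSG00000104154, chr15:45479611-45522807, minus strand), a transporter of endosomal vesicles, had the largest rise of the family from a low level. It stood at 4.50, 5.62 and 6.46 normalized CPM with vehicle and at 9.10, 10.5 and 9.77 with SCH. The groups did not overlap, and the log2 fold change was 0.83 (SE 0.14, adjusted p = 1.53e-05). On the log2(FPKM + 1) scale, which damps low genes, it was 0.39.

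The other exporters moved little. SLC30A9, a mitochondrial zinc transporter and the most abundant SLC30A gene by FPKM, measured 85.7, 84.0 and 94.7 normalized CPM with vehicle and 93.9, 97.7 and 103 with SCH. One vehicle sample lay within the SCH range, and the log2 fold change was 0.16 (SE 0.059, adjusted p = 0.0242). SLC30A7, of the Golgi, had a log2 fold change of 0.17 (SE 0.063, adjusted p = 0.0260), with groups apart. SLC30A5, of the secretory pathway, had one of -0.16 (SE 0.062, adjusted p = 0.0295), with groups apart. Its partner SLC30A6 was not called (log2 fold change -0.14, adjusted p = 0.0944). SLC30A6 was called with upper quartile factors (-0.18, adjusted p = 0.0438), and its value was -0.068 without vehicle replicate 3 and -0.040 with library size only (adjusted p = 0.657). The call of SLC30A5 was lost with library size only (-0.058, adjusted p = 0.438). It was also lost at values near the main one without the filter (-0.14, adjusted p = 0.109) and with DESeq2 (-0.16, adjusted p = 0.0534). The calls of SLC30A7 and SLC30A9 were lost with upper quartile factors (0.14 and 0.13), and that of SLC30A7 with both limma fits (0.15 and 0.17). With library size only, they were higher, at 0.27 (adjusted p = 0.000895) and 0.26 (adjusted p = 0.000629). All 3 calls were also lost when single replicates were left out, as given in the closing section.

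Among the importers of the SLC39A family, 11 of 14 were tested, of which 3 were raised, 3 lowered and 5 not called, with a median log2 fold change of -0.072. The share changed, 54.5%, was near the 58.7% of all tested genes, of which 29.3% were raised and 29.4% lowered. SLC39A11 (ENSG00000133195, chr17:72645949-73092712, minus strand), also called ZIP11, had the largest change of the 23 tested genes. The raw counts were 409, 360 and 286 in the vehicle samples and 69, 47 and 59 in the SCH samples. The normalized CPM was 20.9, 20.02 and 16.1 with vehicle against 3.95, 2.52 and 3.10 with SCH. The groups were far apart. The mean went from 19.0 ± 2.59 to 3.19 ± 0.720, a 5.96-fold lower level with a log2 fold change of -2.58 (SE 0.14, adjusted p = 5.52e-13). This was the 55th lowest log2 fold change among all tested genes. On the log2(FPKM + 1) scale it was -1.46.

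SLC39A11 spans 447 kb of the genome and was the only member longer than 400 kb. Long genes as a class were mostly lower with SCH: of the 299 tested genes spanning over 400 kb, 224 (74.9%) were lowered and 26 raised, and their median log2 fold change was -0.90. The part of gene length in the fall of SLC39A11 was not tested.

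SLC39A10 (ENSG00000196950, chr2:195575977-195737702, plus strand), a zinc importer of the plasma membrane that is known to be repressed by MTF1, was lowered. It stood at 45.5, 41.5 and 55.5 normalized CPM with vehicle and at 24.6, 30.02 and 30.6 with SCH. All SCH samples were below all vehicle samples. The log2 fold change was -0.74 (SE 0.093, adjusted p = 3.78e-07).

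SLC39A14 (ENSG00000104635), also called ZIP14, which carries zinc, iron and manganese, was lowered from a high level. It measured 216, 214 and 208 normalized CPM with vehicle and 158, 159 and 155 with SCH. The groups did not overlap, and the log2 fold change was -0.44 (SE 0.047, adjusted p = 3.55e-08).

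The raised importers changed by less. SLC39A9, a transporter of the secretory pathway, went from 112 ± 4.63 to 133 ± 1.06 normalized CPM (log2 fold change 0.25, SE 0.051, adjusted p = 0.000174). SLC39A3, of the plasma membrane, went from 51.8 ± 3.19 to 60.9 ± 2.98 (0.23, SE 0.064, adjusted p = 0.00304). SLC39A6, also called LIV-1 and known as an estrogen-regulated gene in breast cancer, went from 74.3 ± 3.23 to 84.0 ± 6.34 (0.18, SE 0.061, adjusted p = 0.0153). The groups did not overlap in any of these 3 genes. The call of SLC39A6 was lost without vehicle replicate 2 (0.15, adjusted p = 0.0672) or SCH replicate 3 (0.13, adjusted p = 0.103), whereas those of SLC39A9 and SLC39A3 held in all 15 refits. With library size only, SLC39A6 was at 0.28 (adjusted p = 0.000424).

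Of the 5 importers that were not called, SLC39A7, which releases zinc from the endoplasmic reticulum, had the highest FPKM of the tested zinc transporters. It measured 218, 222 and 201 normalized CPM with vehicle and 234, 194 and 202 with SCH, with overlapping groups (log2 fold change -0.028, SE 0.060, adjusted p = 0.710). The sign held in 11 of 15 refits. It turned with library size only (0.075) and without vehicle replicate 2 (0.0018), SCH replicate 2 (0.034) or SCH replicate 3 (0.010). SLC39A8, a plasma membrane carrier of zinc and manganese, was at -0.10 (adjusted p = 0.109) although its groups did not overlap. SLC39A13 was at -0.11 (adjusted p = 0.0959) and SLC39A4 at -0.072 (adjusted p = 0.496). SLC39A4 was above 0 with library size only (0.031) and without vehicle replicate 2 (0.034), and at -0.17 without vehicle replicate 3. With upper quartile factors, SLC39A8 (adjusted p = 0.0378) and SLC39A13 (adjusted p = 0.0312) were called as lowered, but with library size only SLC39A8 was at 0.0016 (adjusted p = 0.983) and SLC39A13 at -0.0039 (adjusted p = 0.957). SLC39A13 was also called without vehicle replicate 3 (-0.14, adjusted p = 0.0234), and its value was -0.062 without SCH replicate 2. SLC39A8 was at -0.067 without vehicle replicate 3. SLC39A1 was at 0.42 (SE 0.22, adjusted p = 0.101) with few reads, and 69.1% of its exonic bases lie in exons of AL358472.7 and CREB3L4, so its value is uncertain. It was 0.24 without vehicle replicate 3 and 0.28 without SCH replicate 1, and it was called with library size only (0.53, adjusted p = 0.0414).

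FPKM divides by all annotated exonic bases of a gene, so the order of genes depends on that annotation. With vehicle, mean FPKM was 11.8 for MT1A and 3.23 for MT1F, whereas mean normalized CPM was 4.82 and 6.31. By FPKM, MT2A stood first of the members with 1994 to 2150 in the vehicle samples, followed by MT1E with 388 to 447. SLC39A7 came next with 68.4 to 75.6, then SLC39A14 with 29.02 to 30.1 and SLC39A13 with 22.2 to 23.9. Each of these 5 stood apart from the next in order in the vehicle samples, although the range of MT1X reached that of SLC39A13. Below them, SLC39A6, MT1X, SLC39A9 and SLC39A8 overlapped one after another between 14.7 and 23.0. In the SCH samples SLC39A14 fell to 21.6 to 22.2 and overlapped SLC39A13, which in turn overlapped SLC39A6. The lowest tested genes by mean FPKM were SLC39A11, SLC30A4 and SLC39A1. The level and place of SLC39A1 are uncertain, since 69.1% of its exonic bases lie in exons of AL358472.7 and CREB3L4. Order by mean FPKM was the same as by TMM-scaled counts per kb for all 23. Both divide the same counts by gene length, so this match was nearly fixed in advance and is no check of the order. Summed FPKM was 44.6 ± 2.68 for the SLC30A family with vehicle and 47.9 ± 0.842 with SCH, and 204 ± 4.07 and 195 ± 7.32 for the SLC39A family, with overlapping groups in both.

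**Figure D4:**
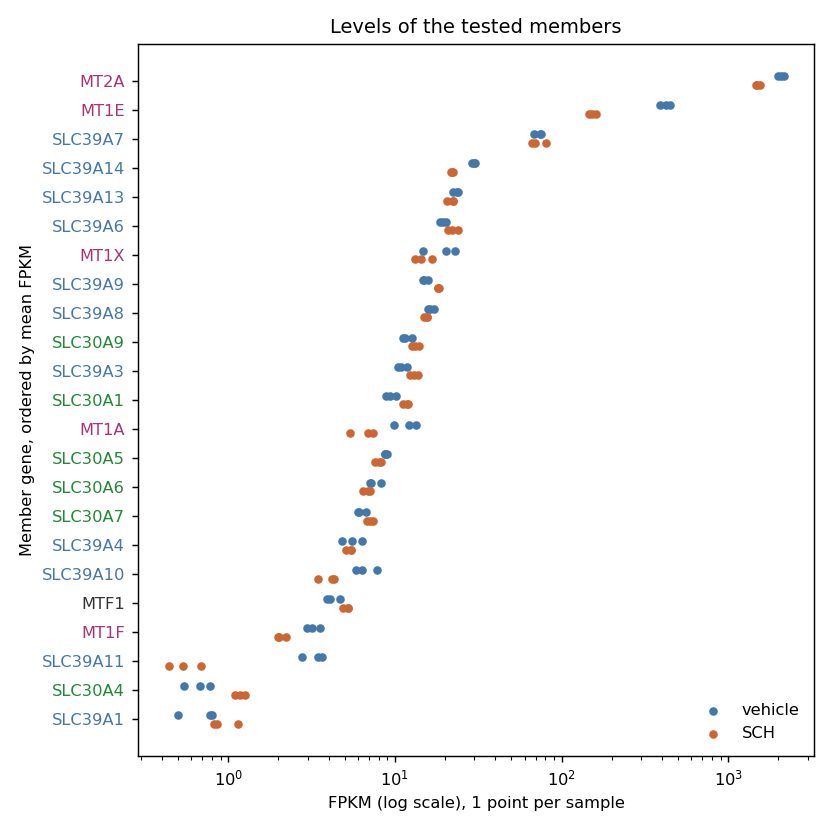
FPKM on a log scale (x axis) of the 23 tested genes ordered by their mean over all samples (y axis), with 1 point per sample and the groups in separate colours. MT2A lies at 1994 to 2150 with vehicle and SLC39A1 under 1.14 in every sample, and the groups are clearly apart for MT1E and SLC39A11. The level of SLC39A1 is uncertain, because most of its exonic bases lie in exons of AL358472.7 and CREB3L4.

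**Figure D5:**
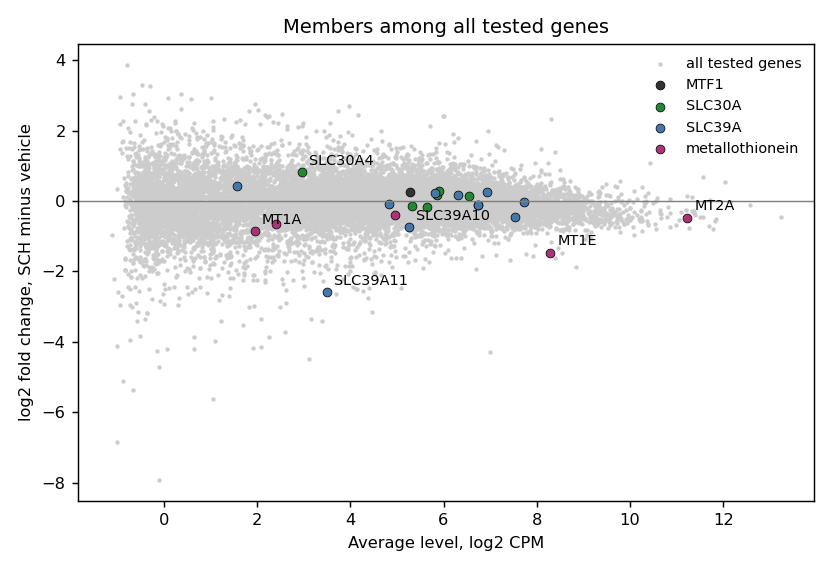
Log2 fold change of SCH against vehicle (y axis) over the average log2 CPM (x axis) for all 14736 tested genes in grey, with the 23 members in colour by family. MT1E at -1.46 and MT2A at -0.47 lie among the most abundant genes, and SLC39A11 at -2.58 lies near the lower edge of the cloud.

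Genes of neighbouring pathways were counted in 5 lists, to be read against the 58.7% of all tested genes that changed. Of the other zinc genes, 8 of 10 tested changed, 4 raised and 4 lowered (median log2 fold change 0.12). CA2, a zinc-containing carbonic anhydrase, rose (1.37, adjusted p = 1.53e-07), as did ZNF658, a zinc-responsive repressor (0.60, adjusted p = 0.0271). Both rose from few reads, with 54, 43 and 47 counts of CA2 and 39, 34 and 25 of ZNF658 in the vehicle samples. CA12, a membrane-bound carbonic anhydrase, fell (-0.56, adjusted p = 0.000700).

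Of the copper handling genes, 9 of 14 changed, 5 raised and 4 lowered, with a median of 0.12. ATP7A, the copper-exporting ATPase, rose (log2 fold change 1.03, adjusted p = 1.63e-06). COMMD1, which acts in copper export (-0.94, adjusted p = 2.43e-06), and STEAP3, a reductase of iron and copper (-0.83, adjusted p = 3.33e-11), fell. Of the iron handling genes, 9 of 13 changed, 4 raised and 5 lowered, with a median of 0.023. SLC40A1, the iron exporter ferroportin, rose (2.26, adjusted p = 6.81e-08) from few reads. It had 25, 8 and 21 counts with vehicle and 77, 93 and 89 with SCH. TFRC, the transferrin receptor, fell (-0.98, adjusted p = 4.46e-14), and FTL, the ferritin light chain, rose (0.67, adjusted p = 6.03e-11). Both lists split between raised and lowered genes much as all tested genes did, of which 29.3% were raised and 29.4% lowered.

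In the 2 lists of stimuli that are known to raise metallothioneins, most genes were raised, against 29.3% raised and 29.4% lowered among all tested genes. Of the 14 genes of the heavy metal stress response, 10 were raised and 1, the small heat shock protein HSPB1, was lowered (median log2 fold change 0.36). HMOX1, heme oxygenase (0.61, adjusted p = 2.09e-06), HSPA1A, the inducible HSP70 (0.60, adjusted p = 0.000129), and SRXN1, sulfiredoxin (0.60, adjusted p = 7.35e-05), were among those raised. HSPA1A has a near-identical copy, HSPA1B, which was also among those raised. Reads shared between them were not measured, so the value of HSPA1A is uncertain. Of the 9 tested glucocorticoid-responsive genes, 8 were raised and none was lowered, with a median of 0.50. DUSP1, a MAP kinase phosphatase (1.204, adjusted p = 1.36e-11), CRISPLD2, a secreted protein (1.15, adjusted p = 9.30e-09), and PER1, a clock protein (1.01, adjusted p = 2.85e-11), had the largest changes. NR3C1, the glucocorticoid receptor itself, was not called (-0.050, adjusted p = 0.467). The tested metallothioneins were lowered in the same samples, and the part of these stimuli in their change was not tested.

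The label of the cells was checked against marker genes. VIM, CD44, EGFR, AXL and CAV1, known to be high in MDA-MB-231 cells, had mean FPKM values of 264, 96.6, 43.2, 293 and 103 with vehicle. Of these, 4 were lower with SCH: CAV1 (log2 fold change -1.17, adjusted p = 8.86e-14), AXL (-0.84, adjusted p = 2.52e-13), VIM (-0.56, adjusted p = 2.02e-10) and EGFR (-0.28, adjusted p = 6.48e-05). CD44 was not called (0.033, adjusted p = 0.547). ESR1, PGR and CDH1, which these cells are known to lack, had between 0 and 6 counts in every sample. Of the markers of other cell types, ALB of hepatocytes had 0 to 3 counts and PECAM1 of endothelium 15 to 30. PTPRC of leukocytes had 39, 37 and 34 counts with vehicle and 4, 9 and 3 with SCH (log2 fold change -2.75, adjusted p = 8.80e-07), and the part of these markers in the changes of the metallothioneins was not tested.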

How the data were processed

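RNA was measured in 6 samples of MDA-MB-231 cells. The sample labels give RPMI-1640 medium, and the study's methods give DMEM. The values deposited by the authors are raw counts per gene, without normalization, from libraries of poly-T purified mRNA made with a kit that does not mark strand. The submitters' processing notes list CASAVA 1.8, HISAT2 2.0.5, featureCounts 1.5.0-p3, DESeq2 1.20.0 and GRCh38. The authors also deposited FPKM values, which divide by all exonic bases of a gene, the gene length given in the deposited table. All sample columns were used.

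These counts were fitted with edgeR 4.0.16 in R 4.3.3, using TMM factors, filterByExpr and the quasi-likelihood test of SCH against vehicle over 14736 genes, with Benjamini-Hochberg adjustment. The standard error of a fold change was taken from its size and the F statistic, as size over the root of F. The biological coefficient of variation was 5.17%. For 3 samples against 3, an exact permutation test cannot go below 0.1, so single values carry no such p. A floor of 3 counts, counting error only, was set for every sample. At depths of 20291379 to 16836369 counts, it corresponds to 0.148 to 0.178 CPM. All 58735 gene IDs are in GENCODE 29. Alternatives were RLE, library size only and upper quartile factors, no filter, a minimum of 10 counts per sample, DESeq2 1.42.0, limma 3.58.1 on log2(FPKM + 1) and log2(FPKM + 0.1), a replicate block, each replicate left out, and other thresholds. The steps were tested on simulated data with 200 changed genes among 14736. The edgeR fit recovered 89% of the changed genes, and the share of false calls was 7.29%.

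The members and lists were chosen with earlier results of these data known. Genes given by sample were those with an adjusted p under 0.05 and a log2 fold change of at least 0.5 in size, MTF1, SLC30A1, SLC39A10, MT2A and the most abundant gene of each family. SLC39A14 and MT1X were added after their values were seen. From each list at most 3 genes are named, those with an adjusted p under 0.05, groups apart and the largest change; HSPB1 and NR3C1 were named after their values were seen. SCO2, with 2 IDs, was left out, and ZNG1A, listed as CBWD1 here, had no row of its own.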

Additional observations from a re-analysis of the deposited data

How the results depend on the processing

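Of the 23 tested members, 12 kept both call and sign under all 15 refits (normalization, filter, tool, block and each replicate left out). These exclude MT1X, which lost its call with DESeq2 (-0.39) and both limma fits (-0.35 and -0.37), against -0.40 in the main fit. SLC30A7 lost its call with both limma fits too (0.15 and 0.17, against 0.17 in the main fit). SLC30A5 lost its call in 8 refits. Its values were -0.058 with library size only, -0.14 without the filter and -0.16 with DESeq2. They were -0.12 to -0.17 without vehicle replicate 1, 2 or 3 or SCH replicate 1 or 2. SLC30A7 also lost its call without vehicle replicate 1 or 2 or SCH replicate 2 (0.14 to 0.15). The call of SLC30A9 was lost without vehicle replicate 1 or 2 or SCH replicate 3 (0.13 to 0.14). That of SLC39A6 was lost without vehicle replicate 2 or SCH replicate 3 (0.15 and 0.13). Members changed numbered 13 to 17 with a replicate left out, raised ones 5 to 8, against 7809 to 8489 of all genes changed and 3936 to 4286 raised. Both member counts were lowest without vehicle replicate 2, where 4061 of all genes were raised. With DESeq2, 15 members and 7919 of all genes changed. An adjusted p under 0.01 left 13 members changed, 5 raised and 8 lowered, and 7026 of all genes changed, 3484 of them raised. A log2 fold change of at least 1 left 2 members changed, 0 raised and 2 lowered, against 1292 of all genes changed, 573 raised and 719 lowered. In the lists it left 1 other zinc gene, 2 of copper handling, 1 of iron handling, 0 of the heavy metal stress response and 3 glucocorticoid-responsive genes.

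Library size alone moved the median of all genes to 0.099, with 5519 genes raised and 3295 lowered. It turned SLC39A7 to 0.075, SLC39A8 to 0.0016 and SLC39A4 to 0.031, none past the threshold, ended the call of SLC30A5 (-0.058), made one of SLC39A1 (0.53), and moved SLC30A6 to -0.040 and SLC39A13 to -0.0039. With a replicate left out, SLC39A7 ranged from -0.11 to 0.034, above 0 without vehicle replicate 2 (0.0018), SCH replicate 2 (0.034) or SCH replicate 3 (0.010), and SLC39A4 from -0.17 to 0.034, above 0 without vehicle replicate 2. The cause was not tested. Upper quartile factors gave 6 members raised and 12 lowered, ending the calls of SLC30A7 (0.14) and SLC30A9 (0.13) and adding those of SLC30A6 (-0.18), SLC39A8 (-0.13) and SLC39A13 (-0.14). With TMM-scaled totals, the metallothionein share was 0.328% with vehicle and 0.220% with SCH.

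Deviations of same-numbered samples did not correlate (0.046, -0.022 and 0.022), so the numbers were not taken to pair the samples. With the replicate block, 17 members changed, the same 17, and 8705 of all genes.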
